A study of Mus musculus with 6 samples.

Results

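The transcripts of 10 genes of heart muscle were followed in RNA sequenced from lung endothelial cells (ECs). They are *Myh6*, *Actc1*, *Tnnt2*, *Tnni3*, *Ttn*, *Myl7*, *Xirp2*, *Ryr2*, *Sln* and *Nppa*, that is 10 of the 47729 genes of the counted annotation, matched by symbol. The members were selected on their known place in heart muscle and on the KO and WT levels of these same libraries. Each KO and WT value of theirs, calls by a test included, is therefore a description and not a test result. The question set for the list was whether *Xirp2* follows the other heart muscle genes or stands alone.

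The study compared leene-KO mice, which lack a region holding 3 long noncoding RNAs (Gm41148, Gm49302 and Gm35360), with wild-type (WT) littermates. The deletion was made by CRISPR and is global, carried by muscle and other cells as well as by ECs. All mice were C57BL6 males of 14 weeks that received angiotensin II (AngII) at 1000 ng/kg/min from an osmotic pump for 2 weeks, so both genotypes were treated and no untreated mice were sequenced. Lung ECs were enriched by magnetic selection, on CD31 in the sample labels and on CD144 in the study's methods, and were sequenced in 3 WT and 3 KO libraries. The labels speak of a pool of 3 mice a group and do not say whether a library is a mouse or a pool, so n counts libraries and p-values measure the spread between them, which may be technical. None of the 3 RNAs of that region is a row of the counted annotation, so the genotype could not be checked from the counts. By qPCR of heart and aorta, the paper reports Gm41148 strongly lowered in KO and no significant difference for Gm49302 and Gm35360.

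Total counts were 24464324 to 35184063 a library, and mitochondrial genes took 37.4% to 54.5% of them. Endothelial identity was present in every library, with 10 endothelial markers summing to 1538 to 3117 CPM (counts scaled to a common library size by TMM). The 5 markers of alveolar type II cells, which the selection should remove, summed to 4934, 46390 and 14404 CPM in WT and 36707, 44951 and 36566 CPM in KO. WT 1 stood apart by the lowest alveolar sum and the highest TMM factor (1.37, against 0.874 to 1.04 in the others). Over the lists of other cells, log2 fold changes of KO against WT had medians of 0.15 (endothelial, 1 of 10 below 0), 0.77 (alveolar type II, 0 of 5) and 0.25 (mesothelium and fibroblasts, 2 of 8).

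Background. The wall of the pulmonary veins of mice carries a sleeve of heart muscle that runs from the left atrium into the lung, so whole lung RNA holds transcripts of atrial muscle. Contraction is carried by the sarcomere, in which myosin pulls on actin under the control of the troponin complex, while titin spans from the Z-disc to the M-band as a spring. *Xirp2* encodes an actin-binding protein with Xin repeats, known as myomaxin, which lies at the Z-disc and at the intercalated disc and is a known target of the transcription factor MEF2A. It is also made in skeletal muscle.

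The DNA before the start sites is shown for 4 members that differ in their readout: *Xirp2*, a pair of sarcomere genes (*Myl7* and *Tnnt2*) and *Ryr2*, which varied least. The sequences are the 120 bases before the RefSeq start in GRCm38.p6, on the strand of the gene, and capitals mark matches to the motifs searched.
Xirp2, chr2:67445882-67446001 (plus strand): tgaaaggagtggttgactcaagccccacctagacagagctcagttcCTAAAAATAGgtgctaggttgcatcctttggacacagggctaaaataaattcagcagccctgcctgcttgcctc
Myl7, chr11:5898783-5898902 (minus strand): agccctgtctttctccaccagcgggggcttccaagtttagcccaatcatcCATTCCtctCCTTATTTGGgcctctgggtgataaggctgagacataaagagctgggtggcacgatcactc
Tnnt2, chr1:135836214-135836333 (plus strand): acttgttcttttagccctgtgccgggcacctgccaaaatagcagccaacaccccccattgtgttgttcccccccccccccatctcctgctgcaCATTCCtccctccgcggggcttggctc
Ryr2, chr13:12106946-12107065 (minus strand): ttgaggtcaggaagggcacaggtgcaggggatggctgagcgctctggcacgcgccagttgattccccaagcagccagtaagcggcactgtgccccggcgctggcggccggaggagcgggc
The *Xirp2* window held a MEF2 site 74 to 65 bases before the start. *Myl7* held a CArG box, the site of serum response factor, 61 to 52 bases before its start and an M-CAT element (CATTCC) at 70 to 65 bases. *Tnnt2* held an M-CAT element at 27 to 22 bases, and none of the 5 motifs was found in the window of *Ryr2*. Nor was any found in the 120 bases before the start of *Tnni3*, which varied 8.32-fold between libraries.

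Both strands were searched for a MEF2 site, a CArG box, the letters AGATAA bound by GATA factors, the M-CAT letters CATTCC and the letters TATAAA of the core promoter in 300-base windows, from 250 bases before to 50 after each start. The table matched 9 of the 10 members. Of all 32851 promoters, 3.19% held the MEF2 site, which was present for 2 members, *Xirp2* and *Ttn*. The log2 fold changes of these 2 were -2.38 (SE 0.73) for *Xirp2* and -0.60 (SE 0.78) for *Ttn*. The CArG box was in 1.63% of all promoters and in those of 2 members, *Actc1* and *Myl7*. CATTCC was in 14.7% of all promoters and in those of 4 members, TATAAA in 13.6% and in 3, and AGATAA in 11.2% and in 1. The TATAAA letters of *Actc1* and *Myh6* and the CATTCC letters of *Ttn* lay after the start. Another window of *Tnnt2*, at a different start, held no match. A match is a description of the letters and not a mapped binding site, and a link between motifs and levels was not tested.

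All 10 members had counts in every library and passed the filter on low counts. Their joint counts were 617 (WT 1), 2517 (WT 2), 1293 (WT 3), 653 (KO 1), 609 (KO 2) and 584 (KO 3), at most 0.00715% of a library. Their summed level was 15.1, 73.9 and 60.5 CPM in WT and 28.1, 22.4 and 20.1 CPM in KO. The lowest and the highest library were thus both WT, and the KO libraries lay between them. In bulk RNA, fewer muscle cells and less RNA per muscle cell cannot be told apart.

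**Figure D1:**
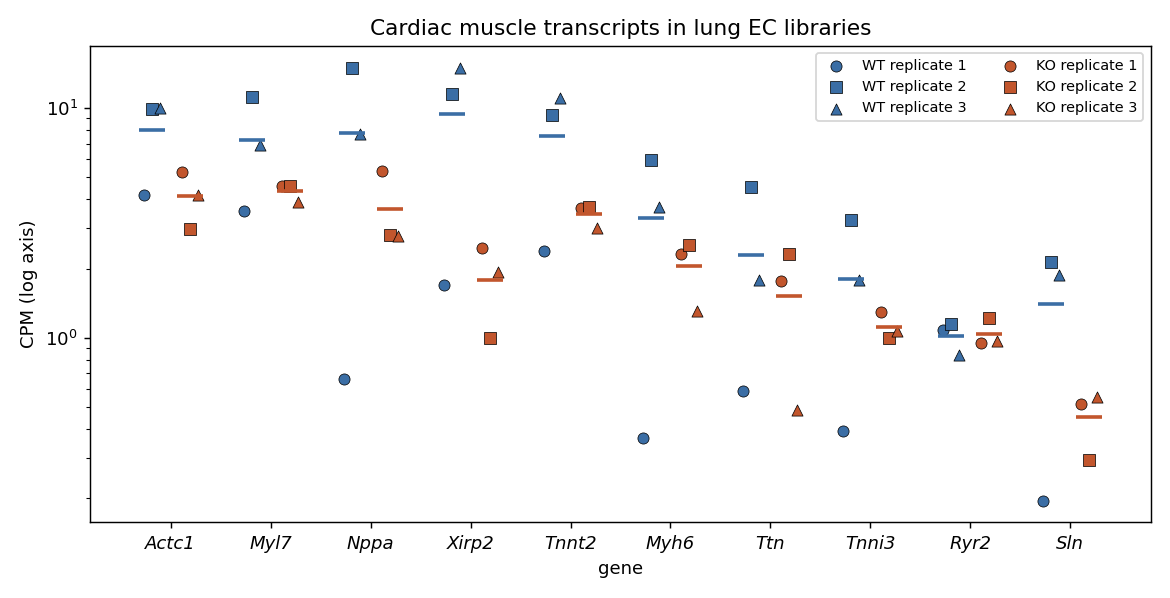
Level of each of the 10 heart muscle genes in CPM (vertical log axis) in 3 WT (blue) and 3 KO (orange) libraries, with marker shapes for the replicate number and horizontal bars for group means. All but *Ryr2* reached their highest value in WT 2 or WT 3, WT 1 was the lowest library for 6 genes, and the groups overlapped for every gene.

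Scaled by exon length, the members spanned a wide range of levels. The length is that of all annotated exons of a gene, so the order depends on the annotation. *Tnnt2* (7752 bases) and *Actc1* (1618 bases) had like means in CPM, 5.52 and 6.08, and differ more per kb. *Myl7*, the atrial regulatory myosin light chain, was highest at 9.79 ± 4.90 CPM per kb (mean ± SD, n = 6 libraries), followed by *Nppa*, which encodes the atrial natriuretic peptide, at 6.59 ± 5.95. *Actc1*, cardiac alpha-actin, stood at 3.76 ± 1.90 and *Sln*, sarcolipin, an atrial inhibitor of the calcium pump SERCA, at 1.80 ± 1.65 CPM per kb. *Tnnt2* (cardiac troponin T, 0.712 ± 0.476), *Tnni3* (cardiac troponin I, 0.710 ± 0.479), *Xirp2* (0.467 ± 0.504) and *Myh6* (alpha-myosin heavy chain, 0.425 ± 0.307) followed, and their spreads covered each other. The order of these 4 differed between the groups: *Xirp2* stood above *Myh6* in WT (0.784 ± 0.574 against 0.525 ± 0.441 CPM per kb, n = 3) and below it in KO (0.150 ± 0.0616 against 0.324 ± 0.103). The means ± SD of neighbours overlapped down to *Myh6*, whereas *Ryr2* and *Ttn* lay outside the spread of the gene before them. Lowest were the 2 members with the longest exon lengths, *Ryr2*, the calcium release channel of the sarcoplasmic reticulum (0.0612 ± 0.0082 CPM per kb, 16849 bases), and *Ttn*, titin (0.0163 ± 0.0126 CPM per kb, 116825 bases). For scale, the endothelial marker *Pecam1* stood at 72.9 CPM per kb.

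Markers of atrial and ventricular muscle were compared next. *Myl7* had 106 to 381 counts a library and *Myl4*, the atrial essential light chain, 127 to 551 counts. *Myl2*, the ventricular light chain, had 0 to 4 counts, *Myl3* 0 to 3 and *Irx4*, a ventricular transcription factor, had 0 in all 6 libraries (3 counts correspond to 0.0734 to 0.140 CPM). *Nkx2-5*, a regulator of heart muscle, had 0 to 0.0937 CPM, and *Myod1* and *Myog*, regulators of skeletal muscle, had 0 in all. *Irx4* and these 3 regulators, like *Myl3*, *Kcnj3* and *Bmp10*, were named after their values were seen. Of 8 atrial markers, which include 3 members (*Myl7*, *Sln* and *Nppa*), 5 were tested and all 5 had a log2 fold change below 0 (median -0.84), with none past the threshold. The list was not uniform, since *Kcnj3*, an atrial potassium channel subunit, had 0 to 6 counts and *Bmp10*, an atrial growth factor, 0 to 33 counts. Of 6 ventricular markers, 2 were tested, *Myh7*, the beta-myosin heavy chain (22 to 52 counts, log2 fold change 0.59, SE 0.45), and *Hey2* (84 to 203 counts, 0.04, SE 0.26), and neither passed. *Hey2* is also made in blood vessels. *Myh7* is also made in slow skeletal muscle. Vein muscle and muscle of the atrium itself cannot be told apart from these counts, so the genes are called heart muscle transcripts below.

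Among the thick filament genes, *Myh6* counts were 15, 202 and 79 for the WT libraries and 54, 69 and 38 for KO. These are 0.367, 5.93 and 3.70 CPM in WT and 2.32, 2.54 and 1.31 CPM in KO. *Myh6* was lowest in WT 1 and highest in WT 2, and the 3 KO libraries lay inside the WT range, with a log2 fold change of -0.69 (SE 0.79) for KO against WT. *Myl7* had 3.57, 11.2 and 6.88 CPM in WT and 4.56, 4.56 and 3.90 CPM in KO, again with KO inside the WT range, and a log2 fold change of -0.73 (SE 0.38). *Ttn* ran from 0.588 (WT 1) to 4.52 CPM (WT 2) in WT and from 0.483 (KO 3) to 2.32 CPM (KO 2) in KO. Its log2 fold change was -0.60 (SE 0.78).

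The thin filament genes were also high in WT 2 and WT 3. *Actc1* counts were 171, 338 and 213 for the WT libraries and 122, 81 and 121 for KO, that is 4.19, 9.92 and 9.97 CPM against 5.24, 2.98 and 4.17 CPM. WT 2 and WT 3 were high and nearly equal, WT 1 fell among the KO libraries, and the log2 fold change was -0.95 (SE 0.37). *Tnnt2* stood at 2.37, 9.28 and 11.1 CPM in WT and 3.65, 3.72 and 3.00 CPM in KO (log2 fold change -1.12, SE 0.50). *Tnni3* stood at 0.392, 3.26 and 1.78 CPM in WT and 1.29, 0.993 and 1.07 CPM in KO (-0.69, SE 0.67). Both troponins were lowest in WT 1, and their 3 KO values were close to each other. *Actc1* is nearly identical to the actins of skeletal and smooth muscle, and *Myh6* to *Myh7*, and only uniquely aligned reads were counted, so the levels of both are uncertain.

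The genes of secretion and calcium handling parted. *Nppa* was the member that varied most between libraries (22.7-fold from lowest to highest), with 0.661, 15.0 and 7.68 CPM in WT and 5.33, 2.80 and 2.76 CPM in KO (log2 fold change -1.10, SE 0.86). *Sln* rested on few counts, 8, 73 and 40 for WT and 12, 8 and 16 for KO. At 0.196, 2.14 and 1.87 CPM in WT against 0.516, 0.294 and 0.552 CPM in KO, its log2 fold change was -1.60 (SE 0.81). WT 2 and WT 3 held the high values of both genes and WT 1 the lowest.

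*Ryr2* did not share this pattern. It had 1.08, 1.15 and 0.843 CPM in WT and 0.946, 1.21 and 0.966 CPM in KO, a 1.44-fold span over all 6 libraries, against 3.13-fold to 22.7-fold for the other 9 members. Its exact 95% Poisson intervals overlapped in every pair of libraries (0.50 to 1.33 CPM in the lowest, WT 3, and 0.836 to 1.70 CPM in the highest, KO 2), and its log2 fold change was 0.02 (SE 0.35), which turned to -0.16 with total counts in place of TMM. Intervals here and below cover counting error only.

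*Xirp2* (ENSMUSG00000027022, GRCm38 chromosome 2, 67446002 to 67526614, plus strand) had the lowest fold change of the list. Its counts were 69, 393 and 319 for the WT libraries and 57, 27 and 56 for KO, which are 1.69, 11.5 and 14.9 CPM in WT and 2.45, 0.993 and 1.93 CPM in KO. WT 2 and WT 3 stood far above the other 4 libraries, with intervals of 10.4 to 12.7 and 13.3 to 16.7 CPM. WT 1 (1.31 to 2.14 CPM) lay among the KO libraries, whose intervals ran from 0.655 to 3.17 CPM. Group means were 9.39 ± 6.88 in WT and 1.79 ± 0.738 CPM in KO (SD, n = 3), with a log2 fold change of -2.38 (SE 0.73). The group difference in *Xirp2* therefore rests on WT 2 and WT 3. Without WT 1 it was -2.89, and over the leave-one-out fits it stayed between -2.89 and -1.88.

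The other 9 members had a median log2 fold change of -0.73, from -1.60 (*Sln*) to 0.02 (*Ryr2*), beside 0.03 over all 14625 genes tested. *Xirp2* lay 1.65 below that median, and it was the lowest of the members fitted in each of the 17 alternatives. Of these, 8 of 9 had a value below 0, beside 45.9% of all genes tested. That count depended on WT 2: without that library 5 of 9 were below 0, and *Myh6* (0.05), *Tnni3* (0.07) and *Ttn* (0.37) moved above it, while *Nppa* went from -1.10 to -0.18 and *Myl7* from -0.73 to -0.29. Without WT 1 the values were lower, at -1.24 for *Myh6*, -1.19 for *Tnni3*, -1.08 for *Ttn* and -1.67 for *Nppa*. The groups separated for 0 of 10 members, where 17.8% of all genes separated (9.2% with KO below and 8.59% with KO above). By edgeR's quasi-likelihood test 0 of 10 members had an adjusted p under 0.05, where 0.109% of all genes did (0.0752% with KO below WT). With an unadjusted p under 0.05, the members counted were 2 (*Xirp2* and *Actc1*), beside 10.3% of all genes, and with DESeq2 1 (*Xirp2*) passed the adjusted threshold, beside 1.21%. Limma-voom and edgeR's likelihood ratio test called 0 of 10, where the latter called 1.44% of all genes. As these contrasts were known when the list was made, nothing is read from the counts.

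The level of *Xirp2* was also set against that of the other muscle genes in the same library. Per 100 counts of the other 9 members, *Xirp2* counts numbered 12.6, 18.5 and 32.8 for the WT libraries and 9.56, 4.64 and 10.6 for KO. The groups did not overlap on this scale, nor did those of 14.1% of all genes tested (0.0889% with KO below WT). The other 9 members summed to 13.4 CPM in WT 1, 62.4 and 45.6 CPM in WT 2 and WT 3, and 25.6, 21.4 and 18.2 CPM in KO. They were thus low in KO as well as in WT 1, and the *Xirp2* level was lower again relative to them in KO. A divisor that is high in WT 2 and WT 3 lowers the ratio of a gene of even level in those libraries. The share of genes with KO below WT is therefore small by construction. The gap between WT 1 and the KO libraries was small: as a share of the counts of all 10 members, *Xirp2* took 11.2% in WT 1 (exact binomial 95% interval 8.81 to 13.9%) and 9.59% in KO 3 (7.32 to 12.3%), which overlap. It took 15.6% (14.2 to 17.1%) in WT 2, 24.7% (22.3 to 27.1%) in WT 3, 8.73% (6.68 to 11.2%) in KO 1 and 4.43% (2.94 to 6.39%) in KO 2. The 3 WT shares also differed among themselves by more than counting error.

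**Figure D2:**
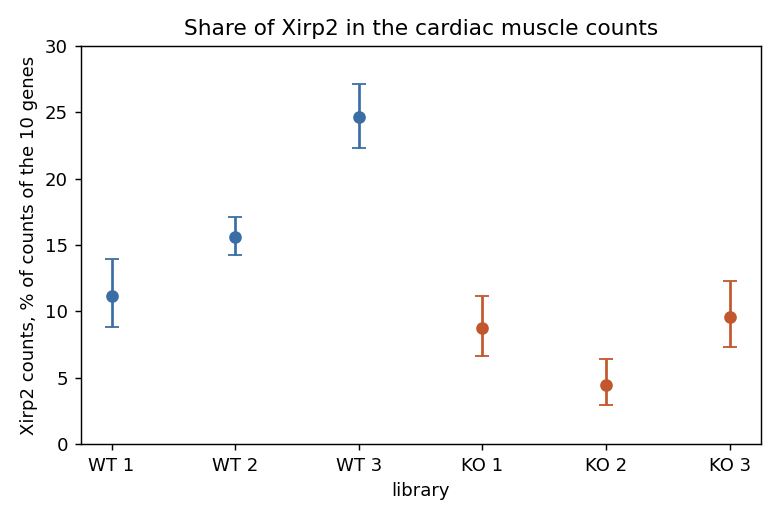
Counts of *Xirp2* as a percentage of the counts of all 10 heart muscle genes in each library (points), with exact binomial 95% intervals (bars). The WT shares of 11.2, 15.6 and 24.7% lie above the KO shares of 8.73, 4.43 and 9.59%, but the interval of WT 1 overlaps those of KO 1 and KO 3.

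The same scaling was applied to each member in turn, as its log2 CPM minus the mean log2 CPM of the other 9. *Xirp2* was the 1 member of 10 whose groups did not overlap, with 0.80, 1.10 and 2.01 in WT and 0.14, -0.90 and 0.30 in KO, where 9.46% of all genes did not overlap relative to the 9 members other than *Xirp2*. A share of 1 in 10 is near that background, which counts both directions. With KO below WT, as for *Xirp2*, the share of all genes was 0.0889%. That share is small by construction, because the other members were high in WT 2 and WT 3. The members were chosen on these same KO and WT levels, so neither the count nor the share is a result about them. *Xirp2* also had the widest range (2.91), followed by *Ryr2* (2.63), which was relatively highest in WT 1, where the other muscle genes were low. The cardiac troponins kept closest to the rest, with ranges of 0.74 (*Tnni3*) and 0.78 (*Tnnt2*).

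Against single partners, the *Xirp2* counts per 100 counts separated the groups for 5 of 9 members (*Myh6*, *Tnnt2*, *Tnni3*, *Nppa* and *Sln*). Against these same 5 partners, 0.752% (*Nppa*) to 17.4% (*Tnnt2*) of all other genes tested separated in either direction. Against *Tnnt2* the values were 71.1, 124 and 135 in WT and 67.1, 26.7 and 64.4 in KO, and against *Nppa* 256, 77.1 and 195 in WT and 46.0, 35.5 and 70.0 in KO. Against *Actc1* (40.4, 116 and 150 in WT and 46.7, 33.3 and 46.3 in KO) and against *Myl7* (47.3, 103 and 217 in WT and 53.8, 21.8 and 49.6 in KO) WT 1 fell among the KO libraries. The overlap was also due to WT 1 against *Ryr2*, and to KO 3 against *Ttn*. The separation of the groups was thus a matter of which partner was used.

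Of all 14625 genes tested, 13 (0.0889%) had fewer counts per 100 counts of the other 9 members in every KO library than in any WT library. The high level of those 9 in WT 2 and WT 3 makes such genes few. Besides *Xirp2*, the 13 held *Ldb3*, a Z-disc protein, and *Hspb7*, a small heat shock protein of heart muscle, with log2 fold changes of -1.59 (SE 0.68) and -1.36 (SE 0.52). They also held the heat shock genes *Hspa1a*, *Hspa1b* and *Hsph1*, the stress factor *Atf3*, the activin antagonist *Fst*, and *Zbtb16*, *Esco2*, *Mettl21e*, *Gm10069* and *Gm17501*. Of these, *Hspa1b* (adjusted p = 0.0188 by edgeR's quasi-likelihood test, log2 fold change -3.37, SE 0.31) and *Hsph1* (adjusted p = 0.0099, log2 fold change -2.17, SE 0.15) passed the test in KO against WT. *Hspa1a* and *Hspa1b* are near-identical copies and their split is uncertain. *Ldb3* and *Hspb7* had adjusted p of 0.484 and 0.459. These genes were named after their values were seen.

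Genes of heart muscle outside the list were counted from lists of related genes. Among 16 other genes of the sarcomere, Z-disc and M-band, 13 were tested, 12 had a log2 fold change below 0 and the median was -0.92, and none passed the adjusted threshold (3 had an unadjusted p under 0.05). *Myl4* resembled its partner *Myl7*, with 3.99, 16.2 and 10.3 CPM in WT and 6.28, 6.36 and 4.38 CPM in KO (log2 fold change -0.84, SE 0.45, adjusted p = 0.553 by edgeR). *Des*, the intermediate filament desmin of all muscle, stood at 84.6, 72.7 and 85.0 CPM in WT and 55.7, 44.2 and 69.2 CPM in KO. Its groups were apart and it did not drop in WT 1 (log2 fold change -0.52, SE 0.18, adjusted p = 0.423 by edgeR). *Nebl*, nebulette of the Z-disc, had 32.1 to 52.1 CPM in WT and 22.2 to 38.7 in KO (-0.41, SE 0.25), and *Tnnc1*, cardiac troponin C, 0.857 to 2.20 and 0.344 to 1.0 CPM (-1.13, SE 0.53). *Myom1*, an M-band protein named after its values were seen, had 3.23, 5.52 and 3.84 CPM in WT and 2.06, 1.77 and 2.07 CPM in KO, with groups apart (-1.09, SE 0.27). Its adjusted p was 0.287 by the quasi-likelihood test, and it passed by the likelihood ratio test alone among the tools run.

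The calcium and ion channel genes had fewer values below 0. Of 15, 8 were tested, 3 were below 0, the median was 0.35 and none passed (2 had an unadjusted p under 0.05). *Atp2a2*, the SERCA pump that *Sln* inhibits, had 76.1 to 173 CPM in WT and 99.8 to 136 in KO (log2 fold change -0.05, SE 0.29). *Asph*, whose short forms include junctin, had a log2 fold change of 0.77 (SE 0.37). That of *Jph2*, which ties the sarcoplasmic reticulum to the surface membrane, was -0.23 (SE 0.26). *Slc8a1*, the sodium-calcium exchanger, had 0.90 (SE 0.23, adjusted p = 0.299 by edgeR). Its groups were apart with KO above WT (1.64 to 1.71 CPM in WT and 2.91 to 3.45 CPM in KO), as were those of 8.59% of all genes. Several of these genes, *Atp2a2* and *Asph* among them, are also made outside muscle.

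Muscle forms of energy metabolism genes gave 7 tested of 10, 3 below 0, a median of 0.33 and none past the threshold at either level of p. *Mb*, myoglobin, had 0.416, 8.40 and 2.25 CPM in WT and 1.98, 2.35 and 1.97 CPM in KO, lowest in WT 1 and highest in WT 2 as *Myh6* was. *Cox6a2*, a muscle subunit of cytochrome c oxidase, had 0.808, 5.05 and 2.90 CPM in WT and 5.24, 6.0 and 4.55 CPM in KO (log2 fold change 0.86, SE 0.55). Among 11 regulators, 7 were tested, 5 were below 0 and the median was -0.02. The MEF2 genes *Mef2a* (-0.02, SE 0.14) and *Mef2d* (-0.02) and the atrial factor *Tbx5* (-0.16, SE 0.25) had values near 0, and *Mef2c* stood at 0.33. *Mef2a* transcripts numbered 128 to 149 CPM in WT and 125 to 145 CPM in KO. Some genes of both lists are also made in other lung cells.

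The nearest companions of *Xirp2* by function were counted in a list of Xin repeat, costamere and titin-associated stress genes. Of 11, 8 were tested, all 8 were below 0 (6 without WT 2 or without KO 3), the median was -0.55, and none passed (2 had an unadjusted p under 0.05). *Hspb7* had 1.32, 5.26 and 3.79 CPM in WT and 1.46, 1.69 and 0.862 CPM in KO, with WT 1 low as in *Xirp2*. *Ankrd1*, a titin-binding stress protein, had 7.0, 9.40 and 11.6 CPM in WT and 6.53, 6.81 and 5.48 CPM in KO, with groups apart (log2 fold change -0.57, SE 0.22, adjusted p = 0.458). *Cryab*, a small heat shock protein also made outside muscle, had 92.6 to 119 CPM in WT and 51.0 to 104 in KO (-0.54, SE 0.26). *Xirp1*, the relative of *Xirp2* with Xin repeats, was below the filter, with 0.235 CPM at most.

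**Figure D3:**
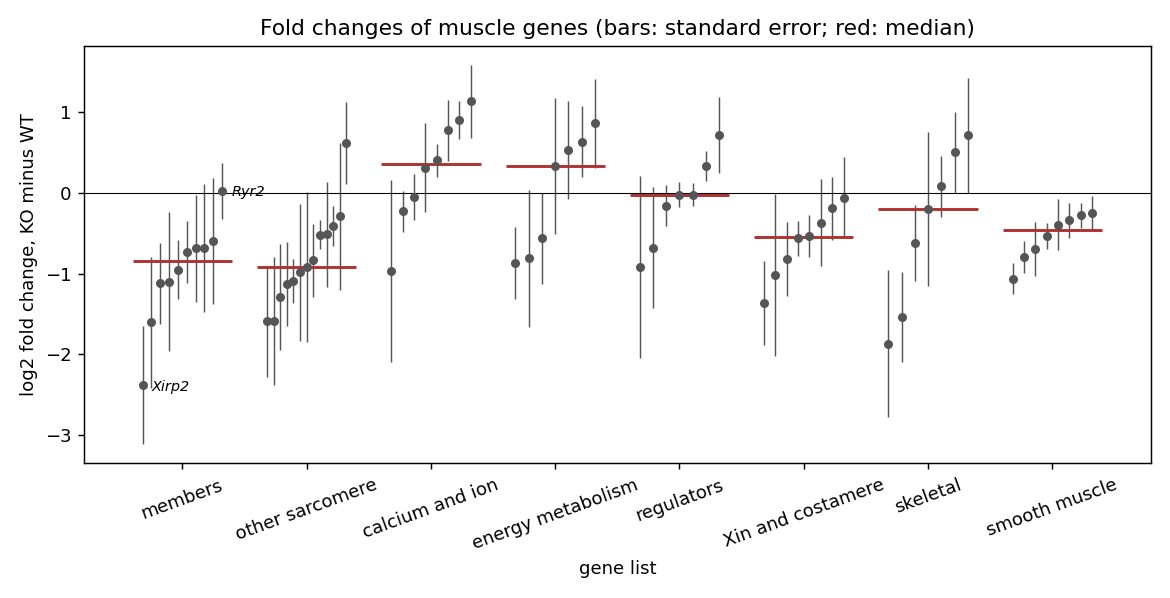
Log2 fold change, KO minus WT, of each tested gene (points) with its SE (bars) for the 10 members and 7 lists of muscle genes, with each list's median in red. *Xirp2* is the lowest point of the plot at -2.38, the sarcomere list has 12 of 13 genes below 0, and the calcium and ion list has 3 of 8.

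Other kinds of muscle were compared to see where the list differs. Of 19 skeletal muscle markers, 7 were tested, 4 were below 0 and none passed (1 had an unadjusted p under 0.05). They summed to 4.11 to 6.46 CPM in WT and 5.04 to 5.16 in KO, a narrower span than that of the heart muscle genes. The sum joins genes that went opposite ways, since 3 of the 7 tested were above 0. For 2 of the 7, *Acta1* and *Myl1*, every KO library lay below every WT library, beside 9.2% of all genes. *Acta1*, skeletal alpha-actin, named after its values were seen, had 0 to 24 counts (log2 fold change -1.87, SE 0.91). *Mylpf*, the fast skeletal light chain, had 0.734, 0.910 and 0.749 CPM in WT and 0.903, 0.662 and 0.966 CPM in KO, and *Myl1*, the alkali light chain of fast muscle, a log2 fold change of -1.53 (SE 0.56, adjusted p = 0.434 by edgeR). All 8 smooth muscle markers were tested and all 8 were below 0, with a median of -0.46, none past the adjusted threshold and 3 with an unadjusted p under 0.05. Every KO library lay below every WT library for 4 of the 8, beside 9.2% of all genes. Of all 60 listed muscle genes tested outside the members, 10 separated with KO below WT and 1 (*Slc8a1*) with KO above. The lists were chosen with earlier results known, so these counts are a description. *Tagln*, which encodes transgelin, had 83.8, 68.9 and 84.9 CPM in WT and 29.3, 37.8 and 46.5 CPM in KO, with groups apart (log2 fold change -1.06, SE 0.19). It passed with DESeq2 and the likelihood ratio test and not with the quasi-likelihood test (adjusted p = 0.140). *Acta2*, smooth muscle actin, had 43.7, 39.9 and 35.8 CPM in WT and 22.3, 30.7 and 29.5 CPM in KO. Its groups were apart as well (log2 fold change -0.53, SE 0.16, adjusted p = 0.363 by edgeR). The smooth muscle genes did not drop in WT 1 (summed level 509, 375 and 495 CPM in WT and 342, 304 and 391 in KO), so the orders of the libraries differ between heart and smooth muscle genes.

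**Figure D4:**
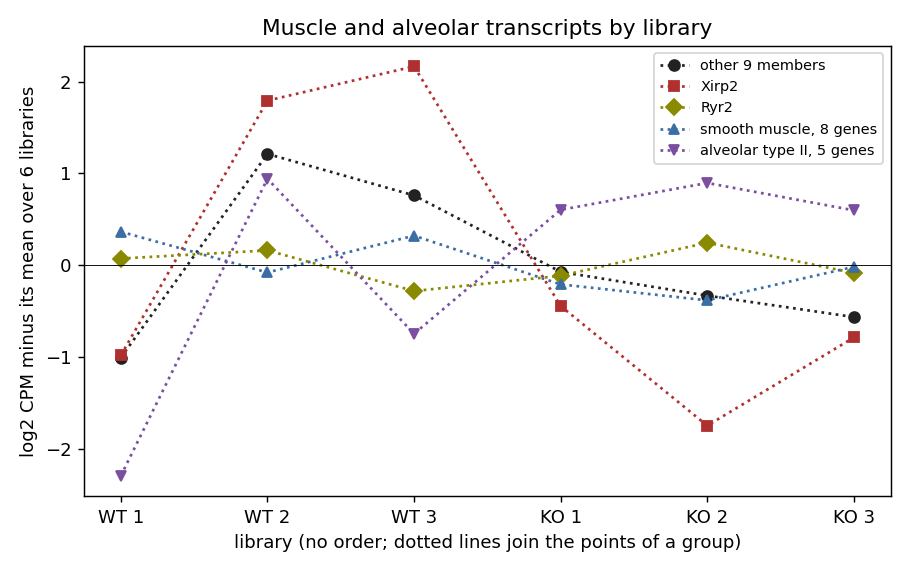
Log2 CPM of summed or single genes in each library, minus the mean over the 6 libraries, for the other 9 members (black), *Xirp2* (red), *Ryr2* (olive), 8 smooth muscle markers (blue) and 5 alveolar type II markers (purple). *Xirp2* and the other members are low in WT 1 and high in WT 2 and WT 3, *Ryr2* stays near 0, and the alveolar sum is lowest in WT 1.

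WT 1 was lowest and WT 2 highest in both the muscle level (15.1 and 73.9 CPM) and the alveolar sum (4934 and 46390 CPM). WT 3 had the second highest muscle level with the second lowest alveolar sum (14404 CPM). The 3 KO libraries had high alveolar sums (36566 to 44951 CPM) with middling muscle. The part of these cells in the muscle values was not tested. Markers of mesothelium and fibroblasts (8 genes) summed to 273, 604 and 570 CPM in WT and 608, 486 and 607 in KO, and were likewise lowest in WT 1. WT 1 was the lowest library for 6 of the 10 members and for 26.7% of all genes tested.

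Among 12887 genes with a mean of at least 1 CPM, the 10 whose centred log2 CPM profile lay nearest to *Xirp2* were *Myoz2* (root mean square difference 0.62), *Tmem252* (0.73), *Cep55*, *Tnnt2*, *Ckap2*, *Fst*, *Olr1*, *Actc1*, *Ch25h* and *Cdk1* (0.82). *Myoz2*, calsarcin of the Z-disc, had 0.294, 3.70 and 3.75 CPM in WT and 0.946, 0.772 and 0.828 CPM in KO. Of the 10, 3 (*Myoz2*, *Tnnt2* and *Actc1*) are sarcomere genes, and the rest, with *Cep55*, *Ckap2* and *Cdk1* among them, are outside the muscle lists. The share of muscle genes among all genes ranked was not taken, so nothing is read from this count. Below the level cut only listed genes were looked up and none was ranked. Of these, *Sln* was closer still (0.51), and the skeletal marker *Myl1* lay at 0.73. The 10 nearest to the sum of the other 9 members were *Myl4* (0.15), *Thbs1* (0.19), *Eln* (0.21), *Clec4d*, *Tinagl1*, *Serpinh1*, *AI662270*, *Gnal*, *Angptl4* and *Timp1* (0.31). *Eln*, elastin, had 193, 574 and 456 CPM in WT and 300, 221 and 179 CPM in KO, highest in WT 2 and WT 3 as the muscle genes were, but lowest in KO 3. *Xirp2* itself ranked 8310 of 12880 by distance to that sum (0.84), a measure that counts the size of the swings as well as their order. By distance to *Xirp2*, out of 12887 genes, *Tnnt2* ranked 4, *Actc1* 8, *Tnni3* 47, *Nppa* 64 and *Myl7* 76. *Myh6* ranked 270, *Ttn* 1112 and *Ryr2* 8854. The points are 6 libraries that share depth and composition, so the likeness is a description.

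Within 0.5 Mb of *Xirp2*, 14 other genes are annotated and 1 was tested. That gene, *B3galt1*, a galactosyltransferase, had 0.588, 0.646 and 0.0937 CPM in WT and 0.344, 0.809 and 0.966 CPM in KO (log2 fold change 0.63, SE 0.69, adjusted p = 0.75 by edgeR). It did not share the high WT 2 and WT 3 values of *Xirp2*.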

How the data were processed

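Stranded poly(A) RNA libraries of 3 WT and 3 KO samples were sequenced as single 50-base reads. The submitters' processing notes name STAR 2.5.4b and mm10. The paper's methods name a GRCm38 annotation for mm10 but hg38 for the alignment, and Kallisto for quantification. The file headers give a mouse annotation. Per the file headers, the counts that the authors deposited are whole numbers for each gene, made with featureCounts (Subread 2.0.0) from uniquely aligned reads over exons of the Ensembl annotation of GRCm38, in the reverse orientation. Symbols were given to 47224 of 47729 genes.

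Counts were tested in R 4.3.3 with edgeR 4.0.16: filterByExpr, TMM scaling, glmQLFit and glmQLFTest with genotype as the only term, and Benjamini-Hochberg adjustment over 14625 genes (threshold 0.05). DESeq2 1.42.0, limma-voom (limma 3.58.1), a likelihood ratio test, other scalings, other filters, a replicate block and leave-one-out fits were alternatives. CPM uses TMM-scaled library sizes. Log2 ratios and profiles use log2 CPM with a prior count of 2. Promoters and motifs came from RefSeq (GRCm38.p6).

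The 10 members and all gene lists were chosen with earlier results of these data known. Named genes were the members, up to 4 of each list with the highest CPM per kb, list genes past the threshold, the 10 nearest profiles to *Xirp2* and to the sum of the others, and tested genes within 0.5 Mb of *Xirp2*. Others are marked as named after their values were seen. The exact permutation test of 3 against 3 libraries cannot go below p = 0.1 and was not used.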

Additional observations from a re-analysis of the deposited data

How the results depend on the processing

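The 17 alternatives moved no log2 fold change of a member by more than 1 SD between libraries (169 values), and *Xirp2* stayed below 0 and below the other members fitted in each. That SD is a loose yardstick, at 1.47 for *Myh6* and 1.28 for *Xirp2*. *Myh6* ran from -1.24 to 0.05 over the leave-one-out fits, and *Tnni3* (-1.19 to 0.07) and *Ttn* (-1.08 to 0.37) also changed sign. *Sln*, the next lowest, was not fitted with at least 10 counts in every library. The *Xirp2* fold change ran from -2.89 to -1.88 over the leave-one-out fits, the median of the other 9 from -1.24 to -0.18, and the difference from -2.04 to -1.13. Over the other alternatives *Xirp2* ran from -2.41 to -1.79, the latter by limma-voom. Members near or under 1 CPM (*Sln*, *Ryr2*) rest on few counts, and the 3 libraries a group limit every value.

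The number of genes called depended on the method. The quasi-likelihood test called 16 of 14625 genes, DESeq2 187, limma-voom 26, the likelihood ratio test 211, RLE scaling 26, upper-quartile scaling 31, total counts without TMM 123 and no filter 152. Leave-one-out fits called 0 to 791, with 791 without WT 2 and 0 without any one KO library. Of the listed muscle genes outside the members, 0 were called, against 1 with DESeq2, 2 with the likelihood ratio test, 1 with total counts, 1 with no filter and 0 to 3 on leaving out a library (3 without WT 2: *Asph*, *Lmod1* and *Tagln*). *Xirp2* was called by DESeq2 (adjusted p = 0.014), with total counts and with no filter. It was also called without WT 1, where 24 genes were called in all, *Tnnt2* among them. As the members were chosen on this contrast, nothing is read from their calls. The causes were not tested.

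The labels give both groups the numbers 1 to 3. Deviations of same-numbered libraries correlated at -0.08, 0.22 and 0.01, so the numbers were not taken as pairs. With the replicate block 0 genes were called.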
